A study of Homo sapiens with 5 samples.

Results

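The regions described here had a DNase I peak in the Hodgkin lymphoma lines L428 and L591 and in none of the 3 other lines examined. They were chosen by the presence or absence of a listed peak: peaks of all 5 lines on chromosomes 1 to 22 were joined where they shared at least 1 bp, and a joined region was kept if it held a peak of L428 and a peak of L591 and none of L1236, Reh or Namalwa. This gave 3314 regions, called members below, of 58006 merged regions. DNase-seq had been done once in each of 5 human B-lineage cell lines, giving 1 library and 1 deposited peak list per line. L428, L591 and L1236 are Hodgkin lymphoma lines, Reh is a pro-B lymphoblastic leukaemia line and Namalwa a Burkitt lymphoma line. Nuclei were digested with Worthington DNase I at 6 U/ml in L428, at 12 U/ml in L591, at 6 U/ml in L1236 and Reh and at 12 U/ml in Namalwa, all at passage 7. Both the lines that define the members and the lines that lack them therefore include each concentration, and no line had a replicate library.

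DNase I cuts where nucleosomes are displaced, so a DNase I peak marks a promoter, an enhancer or another site that proteins keep accessible. Sites shared by few cell types are mostly enhancers far from genes, whereas promoters tend to be open in many cell types. The malignant Hodgkin and Reed-Sternberg cells derive from B cells whose B cell gene expression is largely shut off, and they depend on active NF-kB and AP-1 factors, which act through such distal sites. Genes and sequences of the hg18 build of the files were not used here, so positions are given without gene names.

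The L428 and L591 pair held more regions to itself than any of the 9 other pairs of lines. The 3314 members were 5.71% of the merged regions, 15.7% of the 21149 regions with an L428 peak and 13.1% of the 25224 regions with an L591 peak. The pair next in number was L591 with Reh, with 1576 regions, followed by L1236 with L591 at 1539 and L1236 with L428 at 1063. Pairs with Namalwa had at most 610, and the Namalwa list held only 5643 peaks, against 22758 to 27502 in the other lists. Those 610, shared with Reh, were 12.3% of the 4944 regions with a Namalwa peak and 2.37% of the regions with a Reh peak. L428 and L591 had peaks together in 13918 regions, and members were 23.8% of these (exact Clopper-Pearson 95% interval 23.1 to 24.5, counting error only). In the same 13918 regions, L1236 had a peak in 56.3%, Reh in 58.0% and Namalwa in 26.5%. The counts follow from the rule that chose the members and carry no test, and with 1 library per line no comparison below has one.

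The number of members depends on L1236 and Reh and hardly on Namalwa. With the L1236 list ignored there were 5866 such regions, 41.7% of the regions of L428 and L591, and with the Reh list ignored there were 5452, or 39.0%. With the Namalwa list ignored there were 3320, only 6 more. Shorter lists lowered the count: 1326 regions were left when each list was limited to its upper 50% by score. With only the L428 and L591 lists limited in this way, and absence still judged on the other full lists, 796 were left. With all lists at 5643 peaks, 559 were left.

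Members ranked lower in both lists than the regions that other lines shared. The score of a peak is the authors' peak area, used here only as a percentile within its own list, where 100 is the highest peak. A region took the highest percentile of its peaks in a line. Each line had a single peak in 97.4% of members and in 86.0% of the other regions of both lines, so this choice favours the latter. Its part in the ranks was not tested. The median member lay at percentile 47.5 in L428 (quartiles 25.0 and 69.6), and the other regions of both lines lay at 68.5 (44.2 and 85.8). In L591 the medians were 41.8 for members (22.2 and 63.5) and 74.5 for the other regions (53.1 and 88.6). Members nevertheless ranked above the regions found in 1 of these lines alone, whose median was 28.9 for the 5193 of L428 and 28.7 for the 7217 of L591. Among the classes with 1 more line, the 2518 regions that added L1236 stood at 60.7 in L428 and 60.5 in L591, and the 2078 that added Reh at 49.7 and 58.0. The order of members and of the regions that added Reh turned in L428 with score per bp in place of score, at 50.2 for members and 48.2 for those regions, and held in L591, at 46.2 and 56.4. The 2991 regions of all 5 lines stood highest, at 86.0 and 90.5.

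The share of members fell steadily as the rank of the region rose. Each region was placed by the lower of its L428 and L591 percentiles. Below percentile 10, 601 of 1203 regions of both lines were members (50.0%, exact 95% interval 47.1 to 52.8). Between 40 and 50 the share was 25.9%, and from 90 upward it was 2.44% (33 of 1354 regions, 1.68 to 3.41). Regions of all 5 lines ran the other way, at 2.74% below percentile 10 and 73.0% from 90 upward. The regions that added L1236 kept a share between 18.5% and 24.0% up to percentile 70 and then fell to 9.08%. Of the members, 797 (24.0%) were at or above percentile 50 in both lists, against 52.3% of all 13918 regions of both lines, and 33 (0.996%) were at or above 90 in both, against 9.73%.

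**Figure D1:**
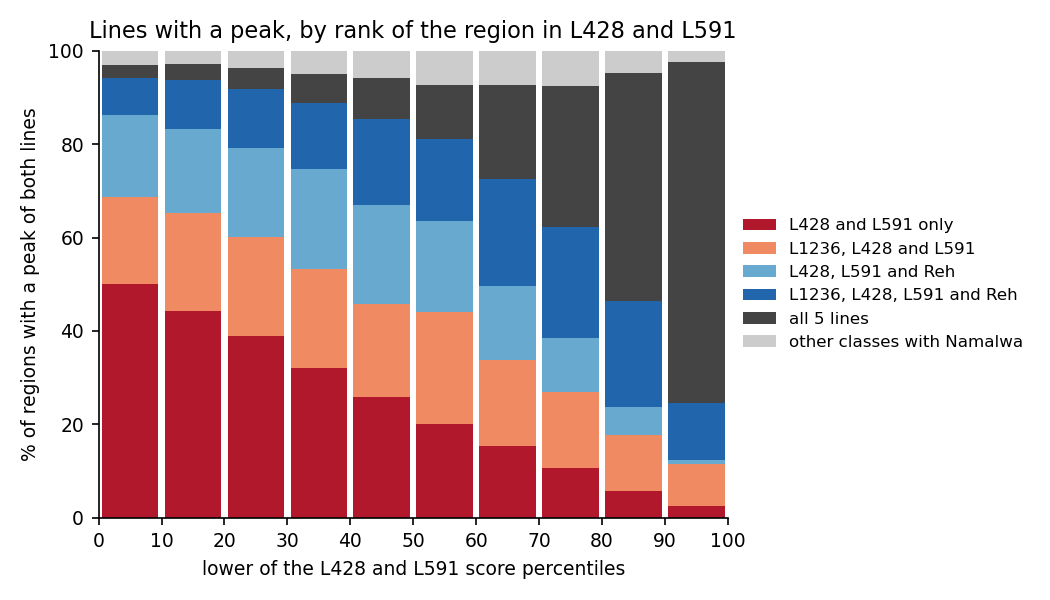
Makeup of the 13918 regions with a peak of L428 and L591, in bins of 10 points of the lower of their score percentiles (x axis, percentile within a list), as the percentage of regions in each bin (y axis), with 1 colour for each set of lines that had a peak. Members (dark red) make up 50.0% of the lowest bin and 2.44% of the highest, where regions of all 5 lines make up 73.0%.

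Some members were nevertheless among the strongest peaks of L428 and L591. The member with the highest rank in both lists was chr17:22822521-22823810 (hg18, as all positions here), at percentile 97.9 in L428 and 98.3 in L591. It had 1 peak in each list, with a score of 17720 over 1080 bp in L428 and of 29816 over 1290 bp in L591. The L428 peak lay wholly within the L591 peak, and the nearest peak of any other line was one of L1236, 86810 bp away. The next was chr2:8665871-8666620, a region of 750 bp with percentiles of 98.3 in L428 and 97.6 in L591. Its score per bp was 27.8 in L428 and 34.8 in L591, at percentiles 98.5 and 99.1 of those lists, so it was high relative to its width as well. A Reh peak lay 9240 bp away. The third, chr10:112523441-112524410, stood at percentile 97.4 in L428 and 97.5 in L591, with its nearest other peak 67130 bp away, in Reh.

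Chromosomes 10 and 12 held 6 of the 10 leading members, and 5.79% and 6.55% of all members. On chromosome 10, chr10:78923111-78924360 had the highest L428 percentile of the 10, at 99.2, with 96.3 in L591. The other, chr10:44116291-44117180, was the most isolated: its nearest other peak was one of L1236 360510 bp away, and it stood at 95.6 in L428 and 98.6 in L591. On chromosome 12, chr12:24242621-24244060 (97.2 in L428, 96.6 in L591) and chr12:24763331-24764160 (96.1 and 98.1) lay in the same 1 Mb window, which is described below. The last on that chromosome, chr12:67053761-67055160, stood at 96.6 and 95.1 and had an L1236 peak 8030 bp away, the shortest such distance of the 10. The remaining leading members were chr2:231497111-231498360 (97.0 in L428, 95.5 in L591) and chr8:127114571-127115750 (94.9 and 95.9), where L428 had 2 peaks and L591 a single one. All 10 were between 750 and 1440 bp wide, against a median of 440 bp over the members. No peak of another line lay within 10 kb of 8 of them, while 37.7% of all members had one. With fixed widths of 200 bp 7 of the 10 were still members, and with peak centres required to lie within 250 bp 8 were.

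At or above percentile 80 in both lists there were 119 members (3.59%), against 20.4% of all regions of both lines. They lay on 17 chromosomes and in 96 windows of 1 Mb, with 19 (16.0%) on chromosome 6, which held 12.6% of all members. Their nearest peak of another line was a median of 21220 bp away, against 18435 bp for all members. Within 10 kb 75 of them (63.0%) had none, close to all members, of which 37.7% had one. Such a peak lay within 200 bp of 3 of the 119, and of 3.26% of all members.

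The ranks of a member in L428 and in L591 were only loosely related. Spearman's rho of the percentiles was 0.29 across the 3314 members and 0.63 across the 10604 other regions of both lines. It was 0.41 for the regions that added L1236, 0.44 for those that added Reh and 0.71 for the regions of all 5 lines. These values are across regions of the same libraries, which are not independent, so they have no p-value, and the sets differ in the range of percentiles they span. With score per bp in place of score, rho was 0.25 in members and 0.60 in the other regions.

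The L428 percentile was the higher in 1822 members (55.0%), against 42.6% of all regions of both lines. The median difference of L428 minus L591 was 3.32 points in members and -3.27 points in the other regions of both lines. Percentiles more than 50 points apart were found in 391 members (11.8%), against 7.54% of all regions of both lines. L428 was the higher in 260 of these 391, and L591 in 131. In the other regions the order was the reverse, with L428 the higher in 216 and L591 in 443.

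The 3 members that leaned most towards L428 were chr21:43446631-43447280, chr8:60216621-60217710 and chr8:102085281-102085970. At the first, L428 stood at percentile 96.3 and L591 at 4.35, with scores of 14464 over 650 bp and 1728 over 230 bp. The pair on chromosome 8 stood at 98.2 and 92.4 in L428, and at 8.13 and 2.88 in L591. In each of them the L591 peak was 230 bp wide and lay wholly within the L428 peak. The 3 that leaned most towards L591 were chr5:60531631-60532760, chr10:71784161-71785900 and chr5:156823971-156824810. At the first, L428 stood at percentile 1.93 and L591 at 97.5, with scores of 1312 over 150 bp and 25424 over 1130 bp. The second stood at 3.46 in L428 and 97.4 in L591. The third stood at 0.38 in L428 and 85.1 in L591, and an L1236 peak abutted it without sharing a base, so this region is a member by the narrowest margin. At these 6 regions the weaker peak is near the bottom of its list.

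**Figure D2:**
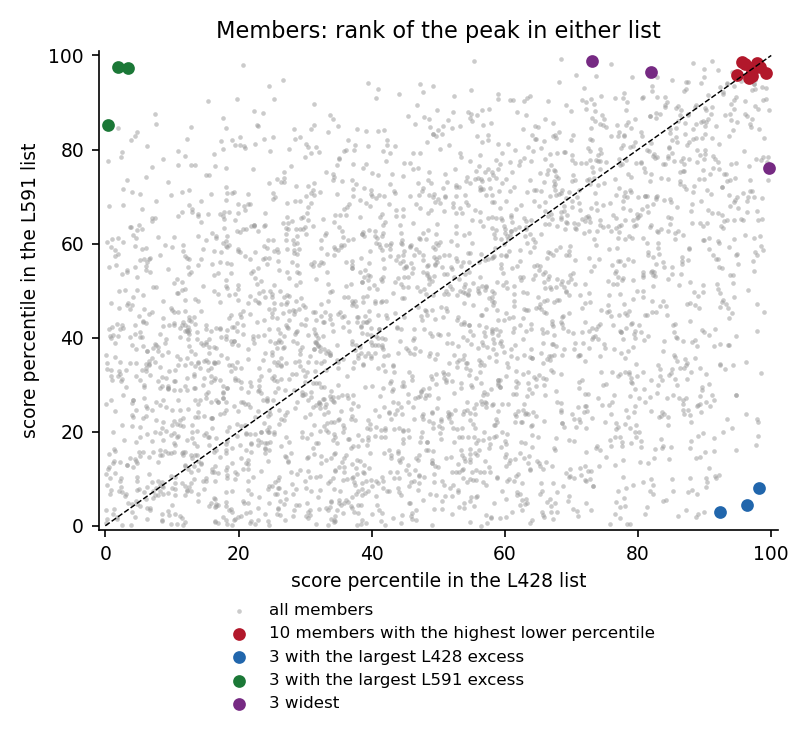
Score percentile of each of the 3314 members in the L428 list (x axis) and the L591 list (y axis), with 1 grey point per member, coloured points for the regions named in the text and a dashed line where both are equal. The points fill most of the square, with Spearman's rho of 0.29, and the 10 leading members lie in the upper right corner at 94.9 or above in both.

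The L428 and L591 peaks of a member lay almost on top of each other. In 3228 members (97.4%) each line had a single peak, against 86.0% of the other regions of both lines. In these the median distance between peak centres was 35 bp, and 85.5% of centres lay within 100 bp, against 50 bp and 77.3% in the other regions. The median L428 peak was 300 bp wide and the median L591 peak 400 bp, against 380 and 570 bp in the other regions. In members with a single peak of each line, the L428 peak lay wholly inside the L591 peak in 56.3% of cases and the L591 peak inside the L428 peak in 16.5%, against 70.7% and 8.16% in the other regions. The other regions could also be joined through a peak of another line, as were 12 in which no L428 peak overlapped an L591 peak. Such joining can add peaks to a region, and its part in these contrasts was not tested. Over the whole lists the median peak was 320 bp wide in L428 and 450 bp in L591. Members ranged from 150 to 2510 bp in width and covered 1.65 Mb in all.

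The 3 widest members differed in the way their peaks were divided. At chr2:228034711-228037220, of 2510 bp, L591 had a single peak over the whole region at percentile 98.9, and L428 had 2 peaks that together covered 640 bp, the higher at 73.1. At chr10:13554641-13556880, of 2240 bp, it was L428 that had a single peak over the whole region, at percentile 99.7, while L591 had 2 peaks, the higher at 76.2. At chr2:9795601-9797590, of 1990 bp, L591 again had a single peak, at 96.5, and L428 had 2, the higher at 81.9.

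Few members lay at the positional edge of the rule, counted in bp. By score, 601 members had a lower percentile below 10, near the bottom of a list. In 3 members the L428 and L591 peaks shared 50 bp or less, with median percentiles of 12.0 in L428 and 19.7 in L591. Just outside, 6 pairs of an L428 peak and an L591 peak lay at most 50 bp apart without sharing a base, at medians of 20.4 and 17.6. A peak of another line lay at most 50 bp from 22 members, whose medians were 28.1 in L428 and 36.5 in L591. On the other side, 9 regions fell out of the class because L1236 or Reh alone shared 50 bp or less with the L428 and L591 peaks, and their medians were 29.3 and 41.7.

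Most members had no listed peak of another line close by. The lists hold called peaks only, so weaker signal of the other lines at a member cannot be seen. The nearest peak of L1236, Reh or Namalwa was a median of 18435 bp away, and 108 members (3.26%) had such a peak within 200 bp. Within 10 kb, 28.1% of members had an L1236 peak, 23.7% a Reh peak and 7.00% a Namalwa peak. The regions that added L1236 likewise lack Reh, and 27.7% of them had a Reh peak within 10 kb, at a median distance of 32740 bp, against 42765 bp for members. Of the regions that added Reh and lack L1236, 32.7% had an L1236 peak within 10 kb, at a median of 26215 bp, against 37030 bp for members. There were 575 members (17.4%) with no peak of another line within 100 kb. They lay in 414 windows of 1 Mb, with median percentiles of 50.5 in L428 and 41.1 in L591, close to those of all members, and 19 of them were at or above percentile 80 in both lists.

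**Figure D3:**
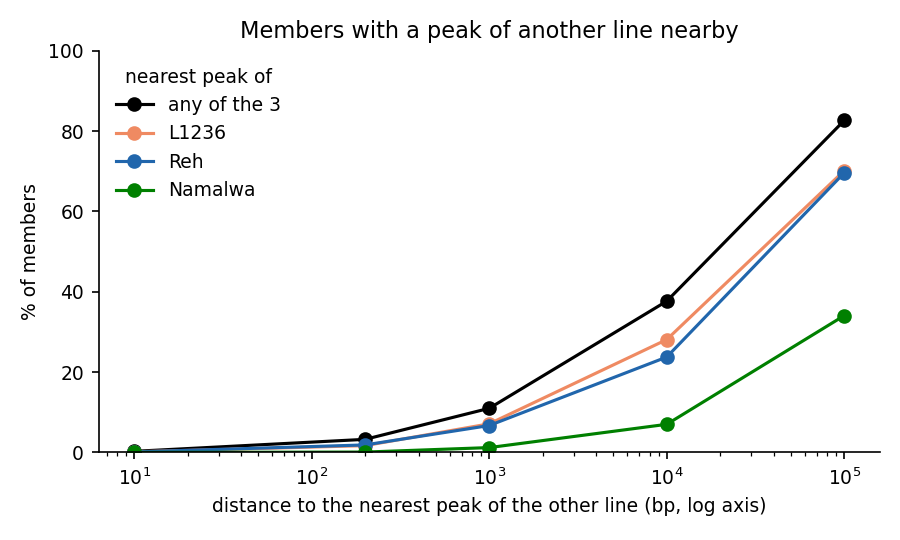
Percentage of the 3314 members (y axis) with a peak of L1236, Reh, Namalwa or any of these lines within 10 bp, 200 bp, 1 kb, 10 kb and 100 kb (x axis, log scale). Within 200 bp 3.26% of members had a peak of another line, and within 100 kb 82.6% did.

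Regions of L428 or L591 alone lay near members more often than near the other regions of both lines, and regions of L1236 or Reh alone less often. A region found in L428 alone lay within 10 kb of 701 members (21.2%), against 11.4% of the other regions of both lines, and a region found in L591 alone lay within 10 kb of 20.7% of members, against 14.8%. A region shared by the 3 Hodgkin lines only lay within 10 kb of 11.9% of members, against 5.90% of the regions of both lines outside these classes. Regions of L1236 alone went the other way, at 8.45% of members against 19.7%, as did regions of Reh alone, at 9.14% against 23.8%. Members also followed each other along the chromosomes. Among the regions of both lines in order, 38.0% of members were followed by another member (exact 95% interval 36.4 to 39.7, counting error only), against 19.4% of the other regions. The corresponding values were 31.5% and 15.1% for the regions that added L1236 and 21.3% and 13.8% for those that added Reh. They were 21.6% and 15.6% for the regions that added both L1236 and Reh, and 31.1% and 18.8% for the regions of all 5 lines. Each of these classes thus also followed itself more often than it followed other regions. Without the window with the most members the value was 37.4%. When the next region with an L428 peak was taken in place of the next region of both lines, 24.8% of members were followed by a member, against 14.0% of the other regions with an L428 peak.

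Members were unevenly spread over the chromosomes. They made up 37.5% of the regions of both lines on chromosome 6 (416 of 1109, exact 95% interval 34.7 to 40.4), 34.8% on chromosome 10, 32.6% on chromosome 8 and 29.5% on chromosome 2. The lowest share was on chromosome 19, with 7.20% (54 of 750, 5.45 to 9.29), followed by chromosome 20 at 14.7%, chromosome 18 at 15.7% and chromosome 1 at 16.4%. Chromosome 19 held 5.39% of the regions of both lines and 1.63% of the members. Reh had a peak in 83.2% and L1236 in 71.6% of the regions of both lines there, against 44.5% and 43.7% on chromosome 6, so the shares of these lines run opposite to the share of members, as the rule makes them. The intervals of neighbouring ranks overlapped throughout, except for chromosomes 20 and 19, so the order of close ranks is not resolved. Without its leading window chromosome 6 had a share of 34.8%, level with chromosome 10, and no longer ranked first. Peaks in a line can also rise and fall with the number of copies of a chromosome stretch, and the part of copy number was not tested.

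**Figure D4:**
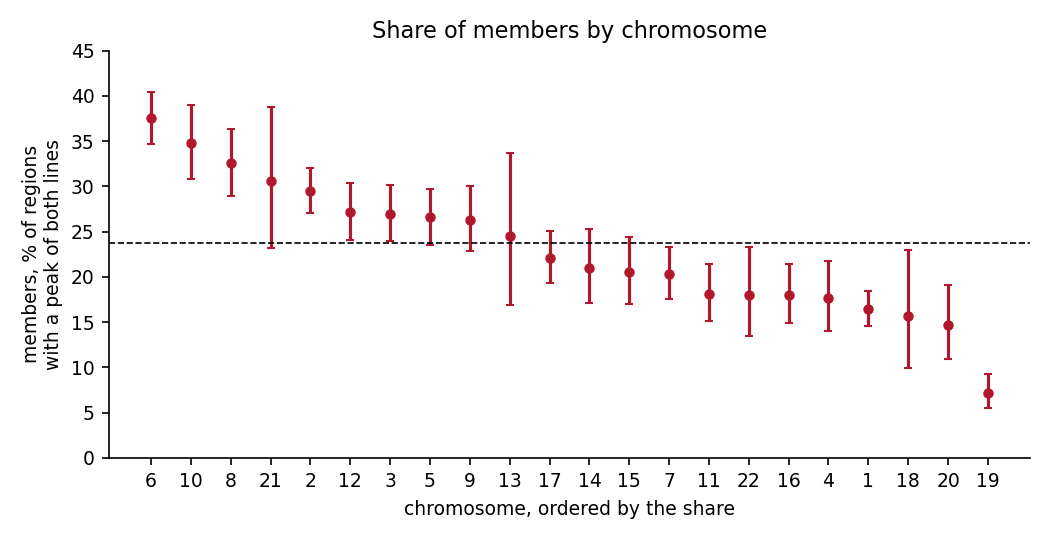
Members as a percentage of the regions with a peak of both L428 and L591 (y axis) on each chromosome (x axis, ordered by the share), with exact 95% intervals for counting error; the dashed line marks 23.8%, the value over all 22 chromosomes. Chromosome 6 stands at 37.5%, or 34.8% without its leading window, chromosome 10 at 34.8% and chromosome 19 lowest at 7.20%.

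Members occurred in 1393 of the 2620 windows of 1 Mb with any merged region, and 628 of these windows held 1 member only. The fullest window ran from 138 to 139 Mb of chromosome 6, where 58 members made up 73.4% of the 79 regions of both lines. L428 had 170 peaks there, L591 had 89, L1236 had 23, Reh 5 and Namalwa 1. A further 88 regions were found in L428 alone and 7 in L591 alone, so L591 had few peaks there that L428 lacked. The members of this window had a median percentile of 87.0 in L428 and 46.2 in L591, against 47.5 and 41.8 over all members. The L428 peaks of the window, in members or not, stood at a median of 72.1, or 56.1 by score per bp. Its L591 peaks stood at 53.9, or 48.8 by score per bp. Of the 58 members 55 lay before the centre of the window, as did 75 of its 79 regions of both lines and 165 of its 175 merged regions.

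**Figure D5:**
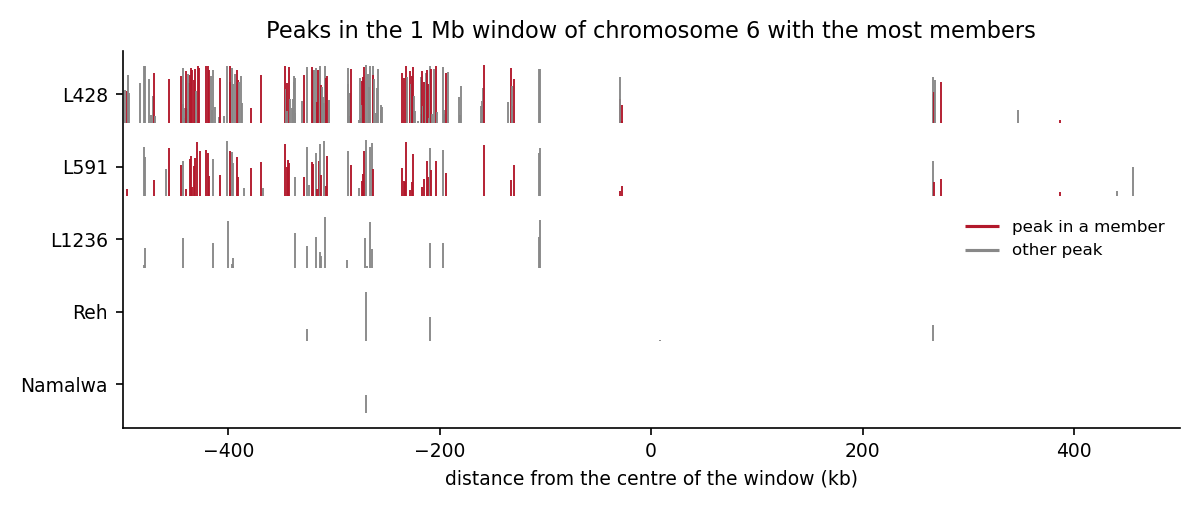
Peaks of the 5 lines in the 1 Mb window of chromosome 6 with the most members, by distance from the centre of the window in kb (x axis), with 1 row per line and the height of each stroke giving the score percentile of the peak in its list. Peaks in members (red) occur in L428 and L591; 55 of the 58 members and 165 of all 175 merged regions lie left of the centre. Reh has 5 peaks in the window and Namalwa 1.

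The other leading windows had similar numbers of L428 and L591 peaks. Chromosome 12 from 24 to 25 Mb held 28 members, 90.3% of its 31 regions of both lines, with 51 peaks in L428, 55 in L591, 3 each in L1236 and Reh and none in Namalwa. Its members stood at a median percentile of 72.5 in L428 and 61.0 in L591, and 2 of them were among the 10 leading members. Chromosome 6 from 45 to 46 Mb held 27 members of 34 regions of both lines, with 63 peaks in L428, 51 in L591, 6 in L1236 and 4 in Reh. Members there stood at 81.4 in L428 and 63.6 in L591. Chromosome 2 from 231 to 232 Mb held 19 of 30, with 42 peaks in L428, 46 in L591, 16 in L1236 and 12 in Reh. Chromosome 8 from 126 to 127 Mb held 15 of 26, with 33 peaks in L428, 42 in L591, 14 in L1236 and 10 in Reh. Members of these last windows stood at 47.3 and 44.9 in L428 and at 53.7 and 59.1 in L591, near the values of all members in L428 and above them in L591. The 5 windows together held 147 members, or 4.44% of all.

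Joined where the gap to the next member was at most 12.5 kb, 765 members (23.1%) fell into 312 chains and 2549 stood alone. The chain with the most members was chr6:138043631-138131590, with 19 members over 87960 bp. L428 had 43 peaks in it, L591 had 26, L1236 had 6, and Reh and Namalwa had none. The third chain, chr6:138264121-138305980, lay in the same window, with 13 members, 32 peaks in L428, 16 in L591, 2 in L1236 and 1 in Reh. The median percentiles of the members were 91.2 and 89.3 in L428 for these chains, and 63.2 and 39.2 in L591. The second chain, chr12:24748521-24799900, had 15 members over 51380 bp, at 76.8 in L428 and 46.4 in L591. It held 25 peaks of L428, 18 of L591 and 1 of L1236, and no peak of Reh or Namalwa, and it includes the leading member at chr12:24763331-24764160.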

How the data were processed

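Each of 5 lines had 1 deposited list of DNase-seq peaks. The submitters' processing notes name Bowtie 1.00 and the hg18 build. Per the deposited files' second column, reads had been extended to 146 bp and counted in bins of 10 bp. The deposited score of a peak is its area as the authors gave it: whole numbers, each divisible by 8, whose scaling is not stated. No source used here gives the peak caller, the threshold for calling or the depth. The L1236 list lacks the mark qcTrimmed that the other lists carry. A growth note in the labels spells L591 differently from its title, which was followed.

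Peaks on chromosomes 1 to 22 were merged at 1 shared bp, and a region took the highest score percentile of its peaks in a line. The regions named are the 10 members with the highest lower percentile, the 3 with the largest difference in each direction, the 3 widest, the 5 windows of 1 Mb and the 3 chains with the most members. The members and lists were chosen with earlier results of these data known. Intervals are exact Clopper-Pearson at 95%. Python 3.11.15, numpy 2.4.6, pandas 2.3.3, scipy 1.17.1 and matplotlib 3.10.9 were used. On simulated lists 100.0% of planted members were recovered. The simulated sites lay too far apart to merge and their peaks had a common centre, so this checks the code only. Alternatives covered overlap, peak width, joining, list length, chromosome X, window size, score per bp and each other line left out. The leading window was left out after seeing the data.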

Additional observations from a re-analysis of the deposited data

How the results depend on the processing

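The count of members was 3314. Leaving out each line that the members lack gave 3320 (without Namalwa) to 5866 (without L1236), with shares of the regions of both lines from 23.9% to 41.7%, median percentiles from 47.6 to 53.5 in L428 and from 41.8 to 50.4 in L591, and 38.0% to 56.7% of members followed by another. Leaving out L428 or L591 was not run, since the rule needs both. Limiting lists gave fewer members: 1326 with the upper 50% of each list (share 18.2%, followed by a member 35.6%) and 559 with lists of equal length (16.6%, 29.1%, L428 median 42.9). In both settings the L1236 and Reh lists were shortened too, so absence was easier to meet. With the upper 50% of the L428 and L591 lists alone there were 796 (10.9%, 27.9%, L428 median 49.6). Percentiles were taken within the shortened lists. A 50% overlap gave medians of 44.7 in L428 and 45.4 in L591, and centres within 250 bp gave a share of 25.8% and an L591 median of 43.0. Peaks of 200 bp gave a share of 25.4%, and score per bp gave medians of 50.2 in L428 and 46.2 in L591. Counting the next region with an L428 peak, 24.8% of members were followed by a member. The cause of these shifts was not tested where the setting does not fix it. Of 63 comparisons of these 5 values, 35 stayed within 1.5 times (counts) or the exact interval (other values), and 28 did not. The window of chromosome 6 from 138 to 139 Mb had the most members under each alternative that kept it and windows of 1 Mb on the same grid, but its 58 members became 38 with the upper 50% of each list, 26 with the upper 50% of the L428 and L591 lists and 12 with lists of equal length. Read depth is unknown, so a closed site and a site missed for lack of reads cannot be told apart.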

Other observations

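Chromosome X was outside the rule, which took chromosomes 1 to 22. It held 84 regions with a peak of L428 and L591 and of no other line. They were 30.3% of its 277 regions of both lines (exact 95% interval 25.0 to 36.1, counting error only), against 23.8% on the other chromosomes, with median percentiles of 50.3 in L428 and 46.5 in L591.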
